A study of Hordeum vulgare with 4 samples.

Results

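In 63 genes of barley leaves, the isoform with the majority of reads differed between plants overexpressing the heat shock factor HvHSFA2e and wild-type plants. In 2 more genes the rule below was met only through tied isoforms. All 65 were chosen by their isoform shares from 7567 eligible genes. Eligible genes had 2 to 9 assembled isoforms and a summed expected count of at least 20 in every library. A gene was taken when 1 isoform held at least 50% of its counts in both overexpression libraries and another isoform held at least 50% in both wild-type libraries. The 65 genes are 0.859% of the eligible genes, and the whole assembly has 63254 genes with 92519 isoforms. The isoform that led in overexpression is called the overexpression leader below, and the one that led in wild type the wild-type leader. All shares, levels and differences between genotypes given for these genes come from the contrast that chose them, and they are a description without a test of their own.

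RNA was sequenced from leaves of the cultivar Golden Promise in 2 libraries of plants that constitutively express HvHSFA2e and in 2 libraries of non-transformed wild type. The sources used here do not give the promoter, the number of transgenic lines or any pooling of plants. They also do not say whether replicates were separate plants, so the spread between replicates may be technical. The labels disagree on heat: they give 42 °C for 30 minutes to all 4 libraries, a protocol gives 40 °C for 4 hours at 2 weeks of age, and RNA came from leaves of 5-week-old plants with no heat named. Plants grew at 18 °C by day and 16 °C by night with a 16-hour photoperiod. All 4 libraries carry the same heat labels, so heated and unheated leaves cannot be compared here. Whether the sequenced leaves had been heated is not settled by these sources.

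Many plant genes with introns can give more than 1 transcript, by retaining an intron, by using another splice site, or by starting or ending elsewhere. The isoforms of a gene can differ in the protein they encode, or carry an early stop codon that leads to their decay. Heat is known to change splicing in plants, and in Arabidopsis the transcript of the heat shock factor HSFA2 is itself spliced differently in heat. The features here are assembled models named only by Trinity identifiers, which the files do not pair with gene names, so no function is given for any gene, and neither the transgene nor leaf markers were looked up.

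Libraries held 14488461 and 14128916 counts in overexpression replicates 1 and 2, against 6030406 and 22631196 in wild-type replicates 1 and 2. The 65 genes took 0.241% and 0.253% of the reads in overexpression, against 0.228% and 0.222% in wild type. Their median count per gene was 232 and 208 in overexpression, against 65 and 239 in wild type. Wild-type replicate 1 was the shallowest library, and 28 of the 65 genes had under 50 counts there.

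The genes were close to the eligible genes in isoform number and level. Among them 31 had 2 isoforms, 16 had 3, 9 had 4, 6 had 5, and 1 each had 6, 7 and 9. Genes with 2 isoforms made up 47.7% of the 65, against 43.9% of the eligible genes, and the median was 3 in both sets. Their median level was 14.9 CPM (the gene's summed isoform counts scaled by library total alone to counts per megaread, averaged over the libraries), against 19.8 CPM over the eligible genes. The CPM values of single libraries below are scaled by TMM factors as well. Each lay in a different read partition of the assembly, and 22 of them (33.8%) were the only gene of their partition, against 29.6% of the eligible genes.

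A change of majority isoform was rare among the eligible genes, but not only between genotypes. Of the eligible genes, 6344 (83.8%) had the same majority isoform in all 4 libraries, and in 889 others no isoform reached 50% in at least 1 library. Among genes outside the 65, the majority isoform differed between the 2 overexpression libraries in 146 genes and between the 2 wild-type libraries in 236 genes.

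In 2 of the 65 genes the switch is only a tie. In TRINITY_GG_1438_c0_g1 both isoforms held 50% in all 4 libraries, at totals of 328 and 331 counts in overexpression and 134 and 712 counts in wild type. In TRINITY_GG_27968_c0_g1 both isoforms held 50% in overexpression, at 136 and 114 counts, and also in wild-type replicate 1, at 45 counts, whereas in wild-type replicate 2 all 111 counts were on 1 isoform. The isoforms of each pair had the same effective length, with a ratio of 1.00, and how far reads can tell them apart was not tested. The shares below are over the 63 other genes, whose lowest leading share was 50.3%. Just outside the threshold, TRINITY_GG_26228_c0_g2 missed it by 1 library, with its overexpression leader at 53.3% and 49.98% in overexpression against 10.2% and 20.4% in wild type. In TRINITY_GG_8497_c0_g1 the overexpression leader held 65.0% and 72.1% in overexpression, and the wild-type leader held 55.1% and 49.93% in wild type.

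Across the 63 genes the leaders mostly exchanged places. The overexpression leader held a median mean share of 65.8% in overexpression and 27.3% in wild type, and the wild-type leader held 29.4% in overexpression and 66.8% in wild type. The difference in the overexpression leader's share, overexpression minus wild type, had a median of 40.2 percentage points and ran between 7.83 and 87.3 points. The largest gap between libraries of 1 genotype, in either leader, had a median of 14.6 points and ran between 2.25 and 43.8 points, with 6 genes at 30 points or more. In 59 of the 63 genes the difference between genotypes was larger than the largest gap within a genotype for both leaders. The rule that chose the genes already keeps the genotypes from overlapping in share, which favours such a result. No matching count over the eligible genes is given, so nothing about reproducibility is read from this count. In 56 genes the leader of each genotype was the second isoform of the other, which cannot be otherwise in genes with 2 isoforms. Among the 34 genes with more than 2 isoforms, the overexpression leader ranked below second in wild type in 6. The wild-type leader ranked below second in overexpression in 1. Both leaders together held at least 90% of the counts in every library in 44 genes, of which 15 were among the 34 genes with more than 2 isoforms.

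**Figure D1:**
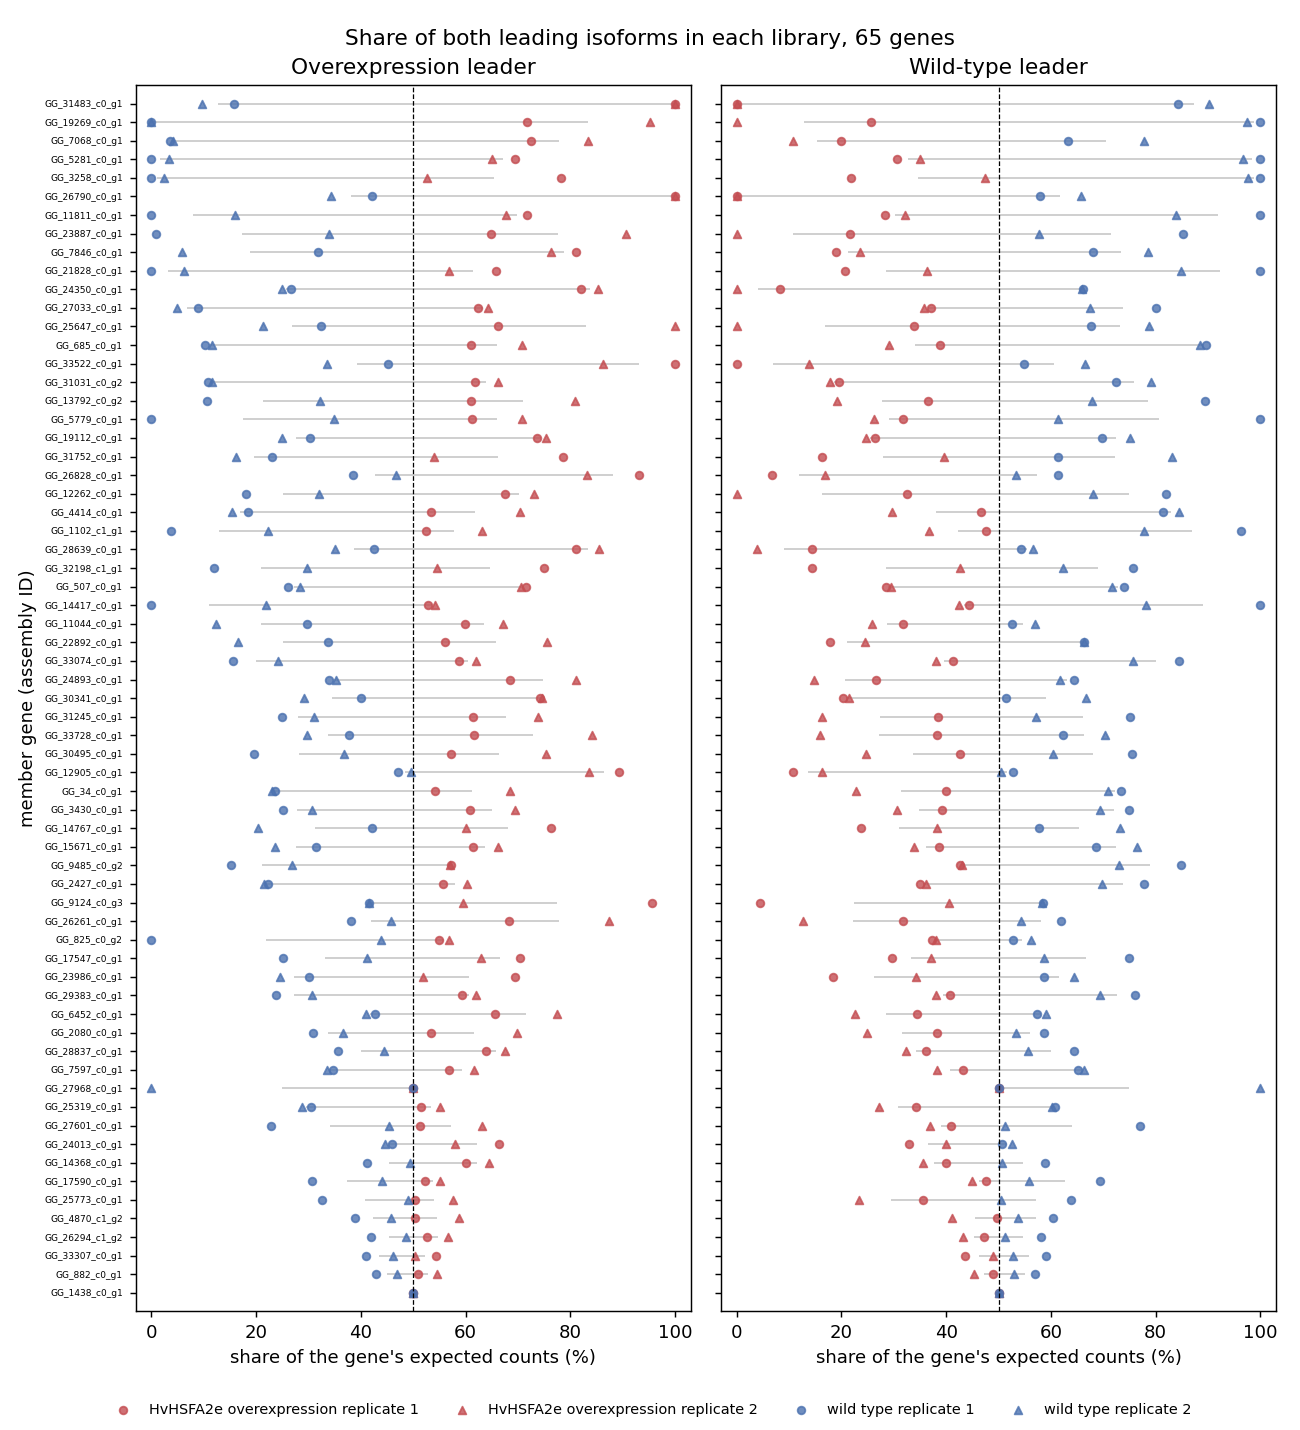
Share of the gene's expected counts (%) on the overexpression leader (left) and the wild-type leader (right), 1 row per gene for all 65 genes, with red points for the 2 overexpression libraries, blue points for the 2 wild-type libraries, a grey line between the genotype means and a dashed line at 50%. Rows run downwards by falling difference between genotypes, with the largest difference of 87.3 points at the top and the tied pair of TRINITY_GG_1438_c0_g1 at the bottom.

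Few genes switched by a wide margin, and many leads were shallow. The lowest of a gene's 4 leading shares had a median of 56.9%, was at least 55% in 36 genes, at least 60% in 20, at least 70% in 3 and at least 75% in 1. In 24 genes the Wilson 95% interval of all 4 leading shares lay above 50%. The rule already required these shares to reach 50%, so this count describes the genes and tests nothing. These intervals cover counting error only and take no account of how RSEM divides reads between similar isoforms. A leader was rarely lost in the other genotype: the wild-type leader was under 10% in both overexpression libraries in 3 genes, and the overexpression leader was under 10% in both wild-type libraries in 6 genes. Under 20%, the numbers were 9 and 11 genes.

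Leaders with a count of 0 in the other genotype were few. The wild-type leader had no counts in either overexpression library in 2 genes, and none in 1 of them in 6 genes. The overexpression leader had no counts in either wild-type library in 1 gene, and none in 1 of them in 7 genes, each time in replicate 1, the shallowest library.

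The gene with the smallest p for isoform usage had similar total levels in both genotypes while its isoforms exchanged places; its usage call was lost without overexpression replicate 2. TRINITY_GG_31031_c0_g2 has 6 isoforms, and its summed level was 162 and 146 CPM in overexpression, against 139 and 134 CPM in wild type. Its overexpression leader, i2, held 61.8% and 66.2% of the counts in overexpression, against 10.8% and 11.6% in wild type. Its wild-type leader, i3, held 19.5% and 17.9% in overexpression, against 72.4% and 79.2% in wild type. For both isoforms the libraries of a genotype lay close together. The genotypes did not overlap in share, as the rule requires. Per length, in the deposited TMM-scaled TPM signal, i2 stood at 94.0 and 88.7 in overexpression, against 13.1 and 13.8 in wild type, and i3 at 34.7 and 28.1 in overexpression, against 102 and 111 in wild type. The log2 fold change of the whole gene was 0.17 ± 0.15 (SE of the fit, n = 2 libraries a genotype).

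In TRINITY_GG_7068_c0_g1, with 4 isoforms, a minor isoform of wild type became the majority in overexpression. The overexpression leader, i4, had 1413 and 3281 counts in overexpression, against 12 and 57 counts in wild type. That was 72.5% and 83.3% of the gene's counts in overexpression, against 3.51% and 4.15% in wild type. The wild-type leader, i5, held 19.9% and 10.8% in overexpression, against 63.2% and 77.8% in wild type. Per length, i5 stood at 20.5 and 24.7 in overexpression, against 31.1 and 43.1 in wild type, so its level differed far less than its share. The whole gene was at 119 and 268 CPM in overexpression, against 61.1 and 67.8 CPM in wild type, with a wide spread between the overexpression libraries.

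In TRINITY_GG_30341_c0_g1, also with 4 isoforms, the libraries of overexpression were close to each other. Its overexpression leader, i4, held 74.3% and 74.6% in overexpression, against 40.0% and 29.1% in wild type. Its wild-type leader, i2, held 20.3% and 21.5% in overexpression, against 51.4% and 66.7% in wild type. The gene's level was 105 and 106 CPM in overexpression, against 68.3 and 79.2 CPM in wild type.

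**Figure D2:**
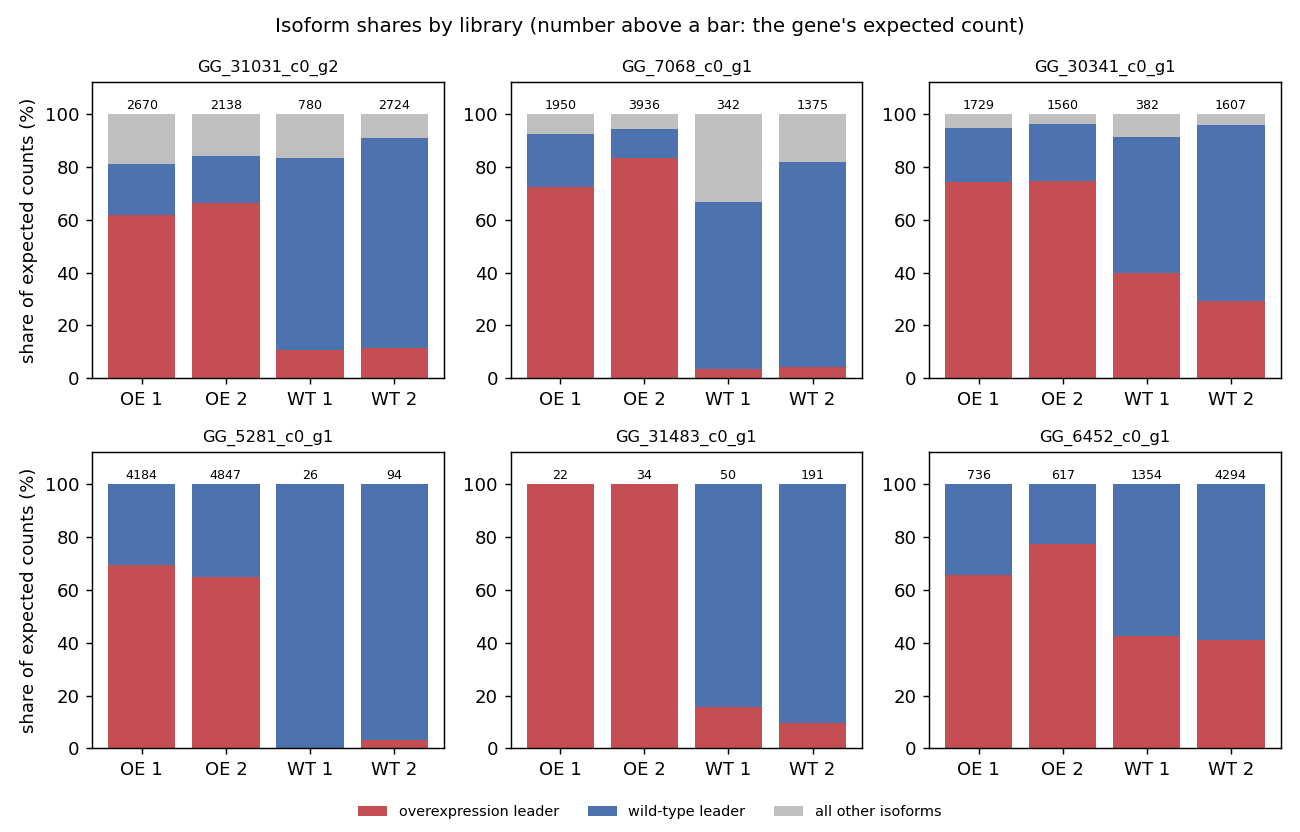
Share of expected counts (%) of the overexpression leader (red), the wild-type leader (blue) and all other isoforms (grey) in each library of 6 genes, with the gene's expected count above each bar. The libraries of wild-type TRINITY_GG_5281_c0_g1 held 26 and 94 counts and those of overexpression TRINITY_GG_31483_c0_g1 held 22 and 34 counts, far fewer than the other genotype of the same gene.

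Several of the widest switches were in genes of few counts. In TRINITY_GG_31483_c0_g1, with 2 isoforms, the overexpression leader held all 22 and 34 counts in overexpression, against 15.7% of 50 counts and 9.75% of 191 counts in wild type. Per length that same isoform stood at 0.514 and 0.868 in overexpression, against 0.499 and 0.321 in wild type, and the wild-type leader was listed at 0 in overexpression, against 2.72 and 3.04 in wild type. The overexpression leader of TRINITY_GG_19269_c0_g1, with 5 isoforms, held 71.7% and 95.2% in overexpression and had no counts in wild type, and the gene's totals were 38.9 and 42.0 counts in overexpression, against 23 and 113 in wild type. TRINITY_GG_11811_c0_g1 had its overexpression leader at 71.7% and 67.8% in overexpression, against 0% and 16.1% in wild type, where the first of these libraries had 28 counts. In TRINITY_GG_7846_c0_g1 the share was 81.1% and 76.4% in overexpression, against 31.9% and 5.87% in wild type. Both wild-type libraries of the last gene were lower than both overexpression libraries, as the rule requires, yet lay far from each other. TRINITY_GG_507_c0_g1 had the smaller gaps, at 71.5% and 70.5% in overexpression, against 26.1% and 28.3% in wild type.

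At the level of whole genes, the 65 were near the background. With edgeR's quasi-likelihood test and an adjusted p under 0.05, 18.6% of the 25095 tested genes were called higher in overexpression and 16.1% lower. All 65 were tested, and 10 (15.4%) were called higher and 11 (16.9%) lower, while of the eligible genes 14.5% were called higher and 22.3% lower. Over the 63 genes without ties the median log2 fold change was 0.05, with quartiles of -0.72 and 0.51, against 0.06 over all tested genes and -0.11 over the eligible genes. The log2 fold change lay within 1 of 0 in 51 of the 65 genes (78.5%), against 79.9% of the eligible genes. Among those called, the log2 fold change was 0.50 to 5.98 in the 10 higher genes and -2.38 to -0.68 in the 11 lower genes. Scaling by library size alone raised the median of all genes to 0.32, and then 25.2% of all tested genes were called higher and 10.2% lower, with 19 of the 65 called higher and 7 lower. The calls also depended on the wild-type libraries: 5 were called higher and 7 lower when wild-type replicate 1 was left out, and 4 were called higher and 7 lower when replicate 2 was. Over all tested genes the calls also fell, to 8.98% higher and 8.46% lower when wild-type replicate 1 was left out, and to 5.48% higher and 5.47% lower when replicate 2 was.

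The gene with the largest positive fold change switched leaders while both of its leaders were higher in overexpression. TRINITY_GG_5281_c0_g1, with 3 isoforms, was at 254 and 331 CPM in overexpression, against 4.65 and 4.63 CPM in wild type, a log2 fold change of 5.98 ± 0.23 (SE of the fit). Its overexpression leader, i3, had 2906 and 3148 counts in overexpression, against 0 and 3.14 counts in wild type. Its wild-type leader, i7, had 1278 and 1698 counts in overexpression, against 26.0 and 90.9 counts in wild type. The wild-type leader was thus also much higher in overexpression, where it held 30.5% and 35.0% of the counts. In TRINITY_GG_19112_c0_g1, with 2 isoforms, the gene was at 41.5 and 31.9 CPM in overexpression, against 4.29 and 3.30 CPM in wild type, a log2 fold change of 3.32 ± 0.25. Its overexpression leader held 73.6% and 75.3% in overexpression, against 30.2% and 24.9% in wild type, and both isoforms were higher in both overexpression libraries than in either wild-type library.

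Other switching genes were lower as a whole in overexpression. TRINITY_GG_6452_c0_g1, with 2 isoforms, was at 44.7 and 42.1 CPM in overexpression, against 242 and 212 CPM in wild type, a log2 fold change of -2.38 ± 0.16. Its overexpression leader held 65.6% and 77.5% in overexpression, against 42.7% and 40.9% in wild type. Per length that leader stood at 70.2 and 76.8 in overexpression, against 223 and 206 in wild type, so the isoform that gained share was itself lower. The same held for TRINITY_GG_4870_c1_g2, the most abundant of the 65 in wild type, at 177 and 195 CPM in overexpression, against 501 and 565 CPM in wild type. Its switch was narrow, with the overexpression leader at 50.4% and 58.8% in overexpression, against 38.9% and 45.7% in wild type. Per length that leader held 44.9% and 53.4% in overexpression, against 33.8% and 40.1% in wild type. By the genotype means, the wild-type leader was thus the top isoform per length in overexpression as well. In TRINITY_GG_24013_c0_g1 the overexpression leader held 66.4% and 58.0% in overexpression, against 45.9% and 44.6% in wild type. Its wild-type leader held only 50.6% and 52.5% in wild type, and the gene was not called for isoform usage. The gene was at 42.1 and 75.9 CPM in overexpression, against 148 and 155 CPM in wild type. TRINITY_GG_31483_c0_g1 was at 1.34 and 2.32 CPM in overexpression, against 8.94 and 9.42 CPM in wild type, a log2 fold change of -2.33 ± 0.33.

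A change in share was thus not always a rise of one isoform and a fall of the other. By the order of the normalised counts, the overexpression leader was higher in both overexpression libraries than in both wild-type libraries in 52 of the 63 genes, while 37.5% of all 38337 tested isoforms were. The wild-type leader was lower in both in 52 genes, while 28.9% of all tested isoforms were. Both held in 41 genes. Both leaders were higher in 6 genes and both lower in 6 others, and in 5 genes each only the overexpression leader or only the wild-type leader was free of overlap.

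Single isoforms passed the edgeR test less often. The background was 7.01% of isoforms called higher in overexpression and 5.57% called lower. The overexpression leader was called higher in 15 of the 65 genes and lower in 1, and the wild-type leader was called lower in 12 and higher in 3. A leader was called in the direction of its share in 26 genes, 14 through the overexpression leader alone and 11 through the wild-type leader alone. TRINITY_GG_31031_c0_g2 was the 1 gene in which both were called. No gene had both called when either wild-type replicate was left out, and over all tested isoforms the calls then fell to 1.22% higher and 0.429% lower without replicate 1, and to 0.374% higher and 0.118% lower without replicate 2.

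**Figure D3:**
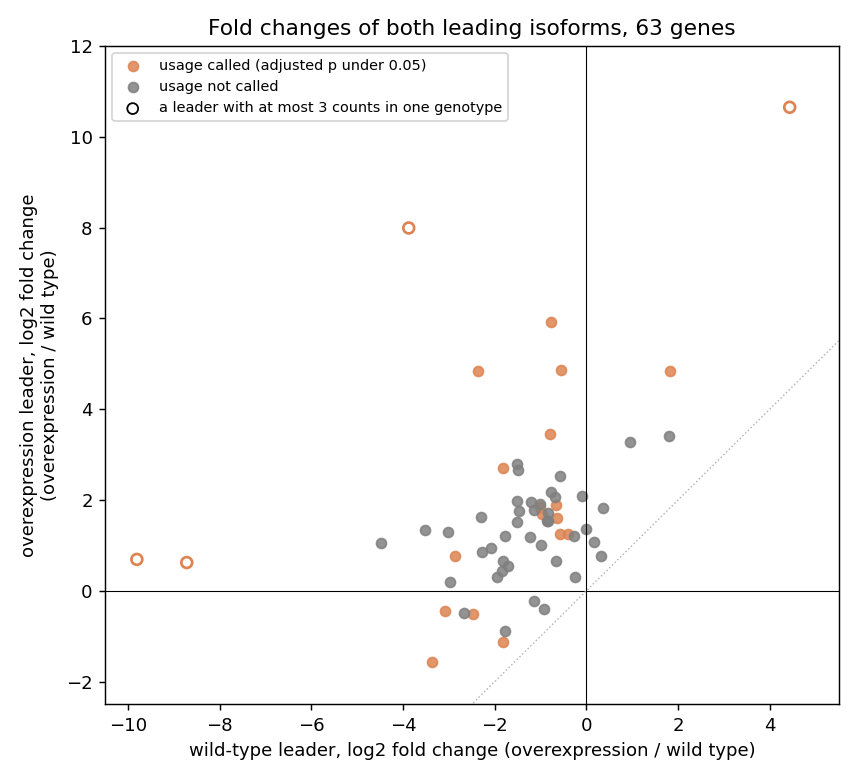
Log2 fold change (overexpression over wild type) of the overexpression leader against that of the wild-type leader in 63 genes, with orange for the 21 genes called for isoform usage, grey for the others, and open circles for 4 genes in which a leader had at most 3 counts in 1 genotype, whose position depends on the prior count. All genes lie above the dotted diagonal, as the choice by share requires, and 41 genes have the 2 leaders apart in opposite directions in every library.

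For isoform usage, the edgeR F test per gene asks whether the isoforms of a gene differ from each other in fold change. It called 8.72% of the 6849 tested genes at an adjusted p under 0.05. Among the 65 genes 21 were called, and 43 had an unadjusted p under 0.05; since the genes were chosen by their shares, nothing is read from these counts. Of the 21, 10 were also called at gene level and 11 were not. The called genes were deeper, with a median of 246 counts in wild-type replicate 1, against 45.5 counts in the 42 uncalled genes without ties. Under 50 counts in that library were found in 4 of the 21 called genes and 23 of the 42 uncalled genes. The median difference in the overexpression leader's share was 44.6 points in the called genes and 38.7 points in the uncalled genes, and the median largest gap within a genotype was 11.8 and 17.2 points. Every library changed this count: it was 3 without overexpression replicate 1, 1 without overexpression replicate 2, 2 when wild-type replicate 1 was left out and 7 when wild-type replicate 2 was. In the same order, the share of all tested genes called was 0.251%, 0.176%, 1.23% and 3.15%.

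The 2 leaders of a gene usually differed in length by more than 5%, and seldom by more than 1.5 times. Within a library, count divided by TPM is proportional to effective length, which gives the ratio of the lengths of the overexpression and wild-type leaders in 56 of the 63 genes, where both had at least 10 counts and a signal of at least 1 in the same library. The overexpression leader was longer by more than 5% in 30 genes (53.6%), shorter by more than 5% in 15 (26.8%) and within 5% in 11 (19.6%), with a median ratio of 1.06 and quartiles of 0.934 and 1.16. The lengths differed by more than 1.5 times in 8 genes. As a scale, in 3998 genes with the same majority isoform in all libraries, that isoform was longer than the next one by more than 5% in 35.7%, shorter in 44.3% and within 5% in 20.01%. The median absolute log2 length ratio was 0.17 in the switching genes and 0.23 in these genes.

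**Figure D4:**
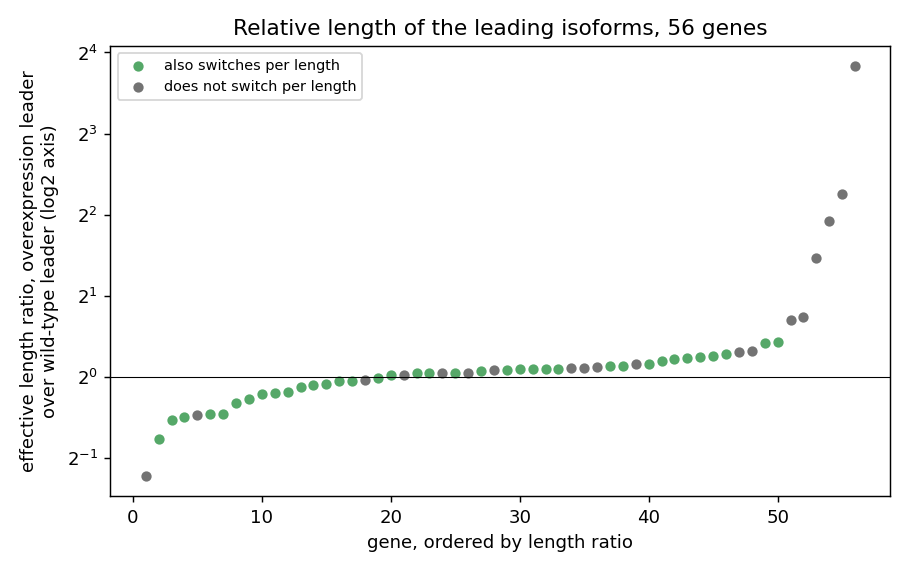
Effective length of the overexpression leader over that of the wild-type leader (log2 axis) in 56 genes ordered by this ratio, green where the shares per length switch as well and grey where they do not. In 8 genes the lengths differ by more than 1.5 times, and the 5 genes with a ratio above 2 or below 0.5 are all grey.

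Read counts favour longer isoforms, so shares were also taken per length. With shares of the length-corrected signal, 43 of the 63 genes still switched by the same rule and 20 did not. In 57 genes the top isoform per length still differed between the genotype means, and in 6 genes it was the same. In TRINITY_GG_685_c0_g1 the effective length of the overexpression leader was 14.2 times that of the wild-type leader. This ratio came from overexpression replicate 1 alone, where the overexpression leader had 22 counts and the wild-type leader 14. The overexpression leader held 61.1% and 70.8% of the counts in overexpression, against 10.3% and 11.5% in wild type. Per length it held 9.96% and 14.1% in overexpression, against 0.941% and 0.692% in wild type, so the shorter isoform led in all 4 libraries. TRINITY_GG_2427_c0_g1 had a ratio of 4.77, and its overexpression leader held 55.6% and 60.2% of the counts in overexpression, against 22.2% and 21.5% in wild type, but per length 20.3% and 23.8% in overexpression, against 5.86% and 5.12% in wild type. TRINITY_GG_19112_c0_g1 had a ratio of 3.78, and per length its overexpression leader held 42.6% and 44.6% in overexpression, against 10.7% and 7.56% in wild type. In these 3 genes the share was higher in overexpression on both scales, and the majority changed on the count scale alone.

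The reverse case, a shorter overexpression leader, was seen in fewer genes. In TRINITY_GG_26294_c1_g2 the ratio was 0.428, and the overexpression leader held 52.7% and 56.7% of the counts in overexpression, against 41.9% and 48.7% in wild type. Per length it held 72.2% and 75.4% in overexpression, against 62.4% and 69.4% in wild type, and so led everywhere. This gene's level was nearly the same in both genotypes, at 101 and 102 CPM in overexpression, against 107 and 96.6 CPM in wild type. In TRINITY_GG_3430_c0_g1 the ratio was 0.588, and the switch was present on both scales: the overexpression leader held 60.8% and 69.5% of the counts in overexpression, against 25.2% and 30.6% in wild type, and per length 72.5% and 79.5% in overexpression, against 36.1% and 43.5% in wild type.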

How the data were processed

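RNA-seq of 4 leaf libraries was used, 2 per genotype, grouped by the genotype in the labels. Tools named, with no version, in the submitters' processing notes are Bowtie2, DESeq2, RSEM and STAR, and the feature names carry the prefix of genome-guided Trinity, per the file headers. The genome build is not given in the sources used here. Isoform values were the authors' RSEM expected counts, which estimate reads per isoform, and the deposited signal, TPM scaled by the authors with TMM factors. The gene-level tables were not used: genes are sums of isoform counts.

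The 65 genes, the rules and the tests were chosen with earlier results of these data known. Counts were rounded and fitted over all genes, or all isoforms, with edgeR 4.0.16 (R 4.3.3; TMM, filterByExpr with a minimum count of 10 and a minimum total of 15, quasi-likelihood test), with p-values adjusted by Benjamini and Hochberg over all features and a threshold of 0.05. Isoform usage was tested with diffSpliceDGE (F test per gene). Shares used unrounded counts. Named genes were those with the highest mean CPM, the smallest usage p, the most complete switches, the largest changes among called genes, the extremes of length ratio and those nearest the threshold. The splitting of reads between near-identical isoforms can limit a share at any depth, and few counts limit it further. How far it did so here was not tested. DESeq2 1.42.0 and limma 3.58.1 (voom with diffSplice) served as alternatives. The fits were tested on simulated counts.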

Additional observations from a re-analysis of the deposited data

How the results depend on the processing

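The membership follows the thresholds and the depth. Of the 65 genes, 20 remained with a leading share of at least 60% and 1 with at least 75%. With at least 50 counts per library 36 remained, and with at least 100 counts 27. Taking the largest share of any size gave 140 genes, including 63 of the 65. Shares per length gave 74 genes, of which 45 were among the 65. Thinning all libraries to the smallest total gave 65 genes, of which 50 were the same. Leaving out 1 replicate gave 119 to 209 genes, always with the 65 among them, since fewer libraries make the rule easier to meet. Leaving out the tied pairs, an alternative chosen after seeing the data, gave 63.

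Gene level calls among the 65 were 19 higher and 7 lower with library size only (25.2% and 10.2% of all tested genes), and leaving out 1 replicate gave 4 to 9 higher and 7 to 12 lower (5.48% to 15.4% and 5.47% to 15.7% of all). Isoform usage calls, 21 in the main test, were 9 with no filter (1.37% of all tested genes) and 37 with limma voom (12.3%), and 1 to 7 with 1 replicate left out (0.176% to 3.15%). Genes with both leaders called in opposite directions, 1 in the main test, were 2 with RLE scaling and 2 with library size only. They were 5 with a minimum count of 50, 4 with no filter and 5 with DESeq2. Calls over all tested isoforms moved too, from 7.01% higher and 5.57% lower in the main test. They were 7.64% and 6.25% with RLE scaling, and 9.97% and 4.36% with library size only. With a minimum count of 50 they were 16.6% and 14.2%, with no filter 4.54% and 2.90%, and with DESeq2 9.69% and 8.35%. The median length ratio was 1.04 to 1.06 under all its alternatives. The causes of these changes were not tested.

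Replicate numbers do not pair the samples: the labels give no shared source, and deviations of same-numbered libraries correlated at 0.0024 over 25095 genes. With the replicate number as a block, 2 of the 65 genes were called for usage (9 of all genes, 0.131%), 9 were called higher and 12 lower at gene level (18.2% and 16.2% of all), and 1 had both leaders called in opposite directions.

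For the named genes, 633 of 748 combinations of value and alternative kept their side of the threshold, 91 lost the call, 24 gained one and 0 reversed. The 633 include values called in neither setting, such as the isoform usage of the tied TRINITY_GG_1438_c0_g1. They are therefore no measure of how stable the calls were.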
